A study of Mus musculus with 4 samples.

Results

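The genes of the MEF2 and SRF regulators of muscle transcription (*Mef2a*, *Mef2b*, *Mef2c*, *Mef2d*, *Srf* and *Myocd*) were examined in ATAC-seq peak lists of mouse aorta. They were chosen by name, as 6 of 21938 protein-coding genes of GENCODE vM21, and every peak in the gene or within 50 kb of it was assigned to the locus. The 6 loci held 34 of 21176 peaks in the control female library, 1 of 1236 for the control male, 2 of 504 in the VEDS female library and 55 of 41444 in the VEDS male. Overlapping peaks of the 4 lists merged into 55 regions, of which 34 were found in both the control female and the VEDS male list.

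MEF2 proteins are MADS-box transcription factors that bind an A/T-rich site and switch on muscle genes, while class II histone deacetylases such as HDAC4 hold them inactive. SRF is a related MADS-box factor that binds the CArG box. In vascular smooth muscle cells (VSMCs), myocardin, the product of *Myocd*, is its coactivator and is required for the contractile program, whereas ternary complex factors such as ELK1 compete for SRF at growth-response genes. *Srf* is itself a classical target of SRF.

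Each library came from aortic nuclei of 2 mice pooled at 60 days of age. Control mice were Col3a1+/+ and VEDS mice Col3a1G938D/+, a heterozygous glycine substitution in type III collagen used as a model of vascular Ehlers-Danlos syndrome. All mice were untreated, and each genotype was represented by 1 female and 1 male library, so that 4 libraries stood for 8 mice. The nuclei were barcoded in a single-cell workflow but the peaks were called on all nuclei of a library together, so that fewer cells of a type and less accessible DNA per cell cannot be told apart.

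The libraries differed widely in the number of peaks and in the fragments behind them. The median peak had 14 fragments at its summit in the control female library, 7 for the control male, 6 in the VEDS female library and 22 in the VEDS male, and 68.8% of control male peaks lay mostly in repeat-masked sequence. The long lists were thus a control female and a VEDS male library, in which genotype and sex cannot be told apart, and with 2 libraries per genotype a two-sided exact permutation test could not give a p below 0.333. All counts are therefore given per library without a test, and the absence of a peak was not read as closed chromatin. Promoters of VSMC markers (*Acta2*, *Myh11*, *Tagln*, *Cnn1*, *Lmod1*, *Smtn*) had a peak at 6 of 6 genes in both long lists. Endothelial markers had one at 0 of 4 genes in the control female list and 2 of 4 in the VEDS male list, fibroblast markers at 2 of 4 in both, striated muscle markers at 1 and 2 of 6, and immune and adipocyte markers at 0 of 4 each. In the short lists no marker promoter had a peak.

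Peaks at *Mef2a*, *Mef2c* and *Mef2d*, but none at *Mef2b*, contained matches to the site of their own protein family, in 4 of 34 peaks at the 6 loci in the control female list and 6 of 55 in the VEDS male list, against 5.33% and 5.90% of all peaks, which lie within the intervals of these shares. A MEF2 site was defined as C or T, then TA, then 4 bases that are A or T, then TA, then A or G, on either strand, and 6 matches lay in peaks found in both long lists. They are shown here with 10 bases on either side, 5′ to 3′ on the strand of the gene (GRCm38, with the match in capitals), because 5 of the 6 had the same 10 bases.
*Mef2a* at the main TSS, chr7:67372841-67372870, minus strand: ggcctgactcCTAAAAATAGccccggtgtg
*Mef2c* intron 4, first, chr13:83603965-83603994, plus strand: tggcagttgcCTAAAAATAGaaaactgctt
*Mef2c* intron 4, second, chr13:83603987-83604016, plus strand: aactgcttaaCTAAAAATAGcctggctctc
*Mef2d* upstream, chr3:88140783-88140812, plus strand: tggggaagcaCTAAAAATAGaggccacaag
*Mef2d* intron 1, first, chr3:88150189-88150218, plus strand: tgttggtgagTTAAAATTAGctcactgccc
*Mef2d* intron 1, second, chr3:88150212-88150241, plus strand: actgcccaggCTAAAAATAGcccctgccca

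The shared 10-mer, CTAAAAATAG, occurred at 5 sites in 3 of the 4 *Mef2* genes. It was singled out after the sites had been read. In the control female list 4 of 34 peaks at the 6 loci contained it on either strand, compared with 0.672% of all 21128 peaks on the reference chromosomes, and in the VEDS male list 4 of 55, compared with 0.778% of 41365. Since these sites came from the same stretches of DNA in both lists, the counts are not independent of each other. At *Mef2c* the pair of matches began 22 bp apart and at *Mef2d* 23 bp apart, a spacing of at most 30 bp between matches that was seen in 0.0994% of all control female and 0.0629% of all VEDS male peaks. Like the 10-mer, the pairs were picked out from the sites shown above, so these shares are a description and no test.

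The whole control female peaks around both pairs are given here because they show how the sites sit within short accessible intervals. The *Mef2c* peak, chr13:83603917-83604123 on the plus strand, lay within intron 4, with its summit 100014 bp downstream of the main TSS, and had a GC content of 39.6%.
*Mef2c* intron 4 peak: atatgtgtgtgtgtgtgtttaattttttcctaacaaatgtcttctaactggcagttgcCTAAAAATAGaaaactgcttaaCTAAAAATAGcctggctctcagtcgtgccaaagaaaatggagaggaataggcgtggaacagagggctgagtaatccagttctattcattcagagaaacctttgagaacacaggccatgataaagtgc
The *Mef2d* peak, chr3:88150078-88150257 on the plus strand, lay within intron 1 and had a GC content of 60%, and its second match was 3 bp from the control female summit.
*Mef2d* intron 1 peak: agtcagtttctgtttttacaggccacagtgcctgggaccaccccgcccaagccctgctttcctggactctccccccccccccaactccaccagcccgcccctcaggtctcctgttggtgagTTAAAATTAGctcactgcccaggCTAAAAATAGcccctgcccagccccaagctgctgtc

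*Srf* carried matches to the CArG box, the site of its own product, in its promoter. The box was defined as CC, then 6 bases that are A or T, then GG. The 250 bases before the main TSS, chr17:46556176-46556425 on the minus strand, are shown with the matches in capitals, and their centers were 65 and 45 bp upstream of the TSS.
*Srf* promoter: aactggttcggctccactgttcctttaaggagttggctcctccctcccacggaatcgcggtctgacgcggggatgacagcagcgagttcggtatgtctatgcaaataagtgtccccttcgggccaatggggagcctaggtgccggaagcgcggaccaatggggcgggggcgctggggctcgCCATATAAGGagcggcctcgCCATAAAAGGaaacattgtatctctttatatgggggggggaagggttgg
Both matches lay in the promoter peak of the control female and of the VEDS male list, 20 bp apart and 59 to 104 bp from the summits. Among 32851 RefSeq promoters of 300 bases (GRCm38), 1.63% had a CArG match and 6 entries of 5 genes had 2 of them. Those with 2 were *Srf*, *Ceacam11*, *Gm33934*, *Gm39572* and *Dusp5*, which encodes a phosphatase of ERK. The RefSeq table held promoters of 5 of the 6 genes.

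A further match at *Srf* lay in intron 2, 2.82 kb downstream of the main TSS, and repeated the 10 bases of the upstream promoter match.
*Srf* intron 2, chr17:46553343-46553372, minus strand: gcctccgtgcCCATATAAGGccggttcggg
It was inside the VEDS male peak, whereas the control female peak in the same place ended 1 base short of the end of the match. *Myocd* is shown for contrast, since no peak at its locus had a MEF2 or a CArG match. Its highest peak in both long lists lay in intron 5, 60.3 kb downstream of the main TSS, and is given as the 300 bases around the summit, chr11:65209540-65209839 on the minus strand, with a match to the AP-1 site (TGACTCA or TGAGTCA) in capitals.
*Myocd* intron 5: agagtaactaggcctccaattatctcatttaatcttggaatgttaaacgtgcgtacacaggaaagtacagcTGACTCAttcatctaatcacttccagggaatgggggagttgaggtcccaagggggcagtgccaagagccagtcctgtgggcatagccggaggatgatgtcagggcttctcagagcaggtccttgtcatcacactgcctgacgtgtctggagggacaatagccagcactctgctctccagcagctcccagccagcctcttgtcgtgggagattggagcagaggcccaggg

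All 6 genes had a promoter peak, defined as a peak within 1 kb of an annotated TSS, in both long lists. Such a peak was found for 44.9% of the 21938 protein-coding genes in the control female list and for 55.5% in the VEDS male list. In the control male list 0 of 6 genes had one (1.34% of all protein-coding genes) and in the VEDS female list 1 of 6 (1.37%), the shared promoter upstream of *Mef2b*. Peaks were ranked within a list by −log10 q, and a rank is given as a percentage of the list, with 0% the highest. Across all protein-coding genes with a promoter peak, the median rank of the best one was 27.7% in the control female list and 18.5% in the VEDS male list.

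**Figure D1:**
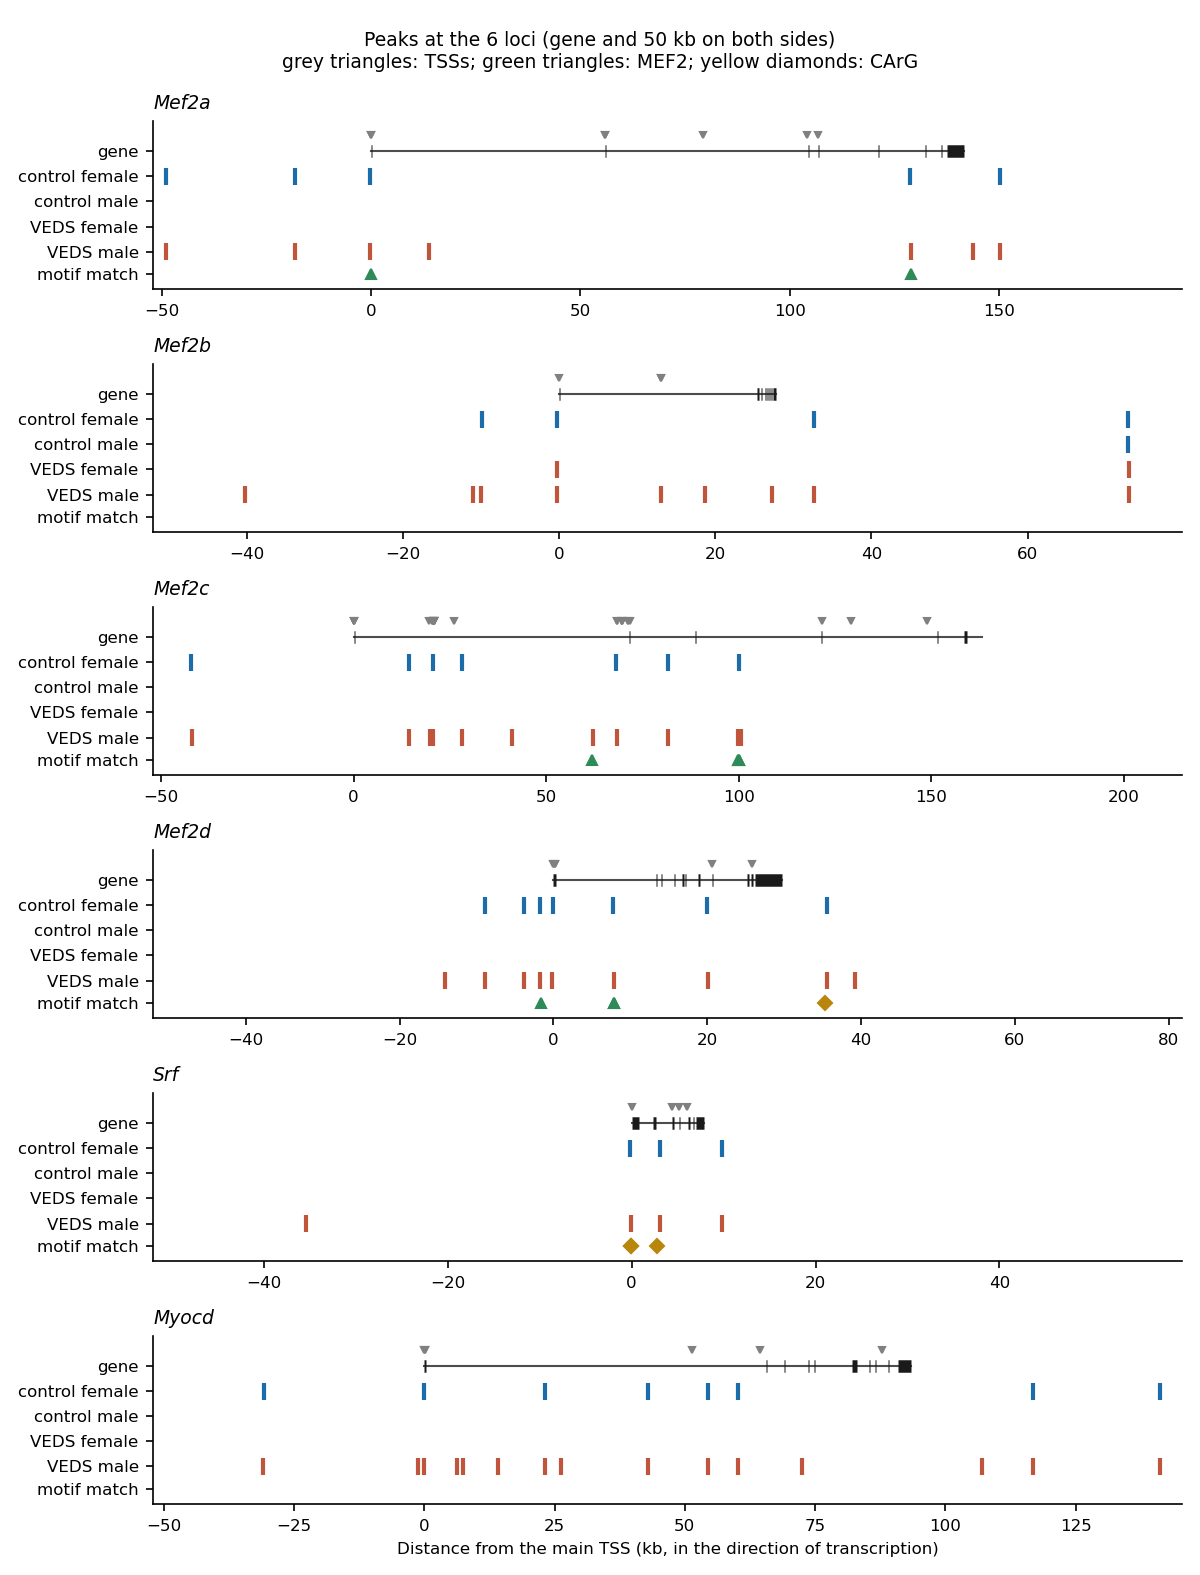
Positions of peaks at the 6 loci, one panel per gene, with distance from the main TSS in kb on the x axis and one row per library (control in blue, VEDS in red). Black boxes are exons, grey triangles TSSs, green triangles MEF2 matches and yellow diamonds CArG matches. The control male and VEDS female rows are empty except at *Mef2b*.

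*Mef2a*, the MEF2 family member expressed broadly in postnatal muscle, had a peak at 1 of 5 annotated TSS clusters (TSSs of all transcripts grouped within 500 bp). The promoter peak covered the main TSS on chromosome 7 and was 716 bp wide in the control female list and 783 bp wide in the VEDS male list. It ranked at 25.2% with 21 fragments at the summit in the control female list and at 19.5% with 46 fragments in the VEDS male list. The 2 lists placed its summit 301 bp apart, at 284 bp upstream and 17 bp downstream of the main TSS, and the MEF2 match at the TSS was 15 bp from the VEDS male summit. The other 4 clusters, from 55.9 to 107 kb downstream, had no peak in any list.

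*Mef2b*, best known as a regulator of germinal center B cells, had the highest promoter peak of the 6 genes, but the peak was shared. Its most upstream TSS, used by 1 of its 5 transcripts, lies within 1 kb of the starts of *Borcs8*, encoding a subunit of a lysosome-positioning complex, and *Rfxank*, encoding a regulator of MHC class II genes. The peak there ranked at 0.793% with 47 fragments in the control female list, at 0.984% with 98 fragments in the VEDS male list and at 11.1% with 10 fragments in the VEDS female list. The TSSs of the other 4 transcripts, 13.1 kb downstream, had a peak only in the VEDS male list, 142 bp wide, 25 bp away and ranked at 48.9% with 20 fragments. Peaks at the annotated start of most *Mef2b* transcripts were thus recorded in 1 of the 4 lists, and the strong promoter peak cannot be assigned to *Mef2b* rather than to its neighbors.

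*Mef2c*, which is required for heart and vascular development, had 27 annotated TSSs in 10 clusters, compared with a median of 3 TSSs per protein-coding gene. The most upstream cluster, with 6 transcripts, had no peak in any list. The cluster 20.3 kb downstream, with 10 transcripts, was covered in both long lists by a peak that ranked at 58.0% with 12 fragments in the control female list and 27.5% with 32 fragments in the VEDS male list. A cluster 68.3 kb downstream also had a peak in both, ranked at 72.5% with 8 fragments and 90.2% with 9 fragments. In the VEDS male list a further peak, ranked at 59.5% with 19 fragments, lay between the TSS at 19.4 kb and the cluster at 20.3 kb. Peaks were thus found at 2 of 10 clusters in the control female list and at 3 of 10 in the VEDS male list, and all of them were internal to the longest transcripts. In the control female list the best promoter peak of *Mef2c* ranked lower than that of any of the other 5 genes, whereas in the VEDS male list that of *Myocd*, at 32.4%, was lower.

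*Mef2d*, the remaining family member, had a peak at 2 of 3 TSS clusters in both long lists. The summit at the main TSS was at the same base in both, 63 bp upstream, and the peak ranked at 39.9% with 28 fragments in the control female list and 20.4% with 72 fragments in the VEDS male list. The peak near an internal TSS 20.6 kb downstream was weak in both, at 96.6% with 7 fragments and 71.1% with 16 fragments.

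*Srf* and *Myocd*, which encode the CArG-binding factor and its coactivator, each had a peak at 1 of 4 TSS clusters, the main one. The *Srf* peak with both CArG matches ranked at 15.8% with 32 fragments in the control female list and 9.53% with 79 fragments in the VEDS male list. The *Myocd* promoter peak ranked at 33.9% with 21 fragments and 32.4% with 37 fragments. The 3 remaining *Myocd* clusters, from 51.4 to 87.8 kb downstream, had no peak. Over the 6 genes, 8 of 28 TSS clusters had a peak in the control female list, 0 for the control male, 1 in the VEDS female list and 10 in the VEDS male. The share over the TSS clusters of all genes is not given here, so these counts are not read as particular to the 6 genes. GC content of the promoter peaks ranged from 49.1% at *Mef2c* to 72.4% at *Mef2d*.

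Most of the peaks at the 6 loci lay outside their promoters. By its definition, a locus with 50 kb on both sides of the gene is mostly sequence other than promoters. The same split over all gene loci is not given here, so it is not read as a trait of these genes. In the control female list 8 peaks were at own promoters, 11 in introns of the gene itself, 5 at promoters of other genes, 3 inside other genes and 7 in intergenic sequence. In the VEDS male list the counts were 10, 22, 6, 6 and 11. Since a locus of this size reaches into its neighbors, peaks near other genes were kept in the counts but named as such. Peaks at the 6 loci made up 0.161% of the control female list (95% Wilson interval 0.115 to 0.224) and 0.133% of the VEDS male list (0.102 to 0.173), while the loci spanned 0.0390% of the reference bases. The intervals cover counting error only. Against other gene loci, peak density was above that of 63.9% (*Mef2a*) to 93.2% (*Mef2d*) of protein-coding genes in the control female list. In the VEDS male list it was above that of 54.4% (*Mef2a*) to 90.7% (*Myocd*).

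**Figure D2:**
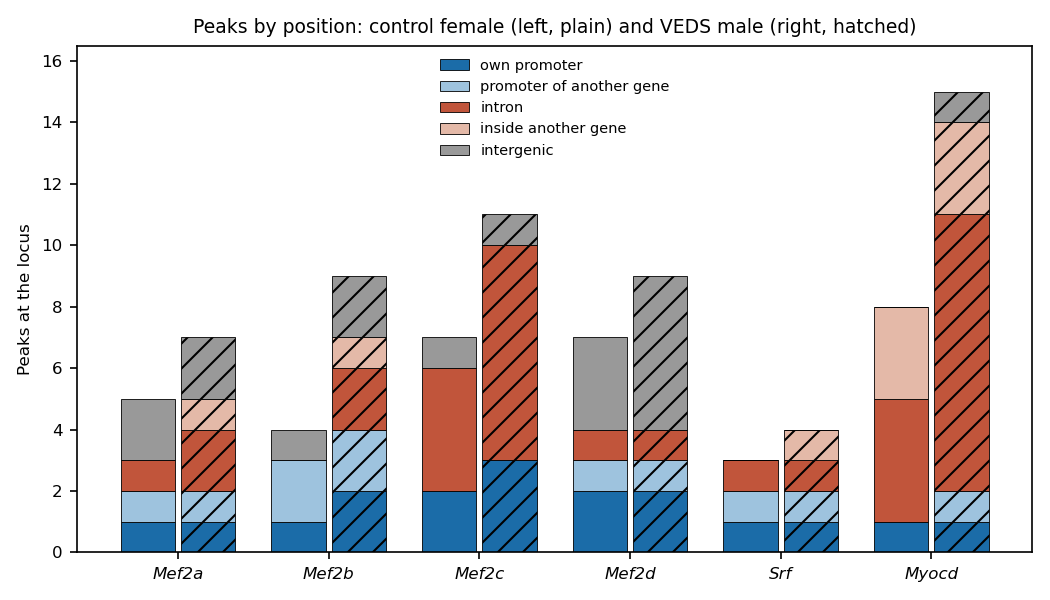
Number of peaks at each locus (y axis) in the control female list (left bar, plain) and the VEDS male list (right bar, hatched), divided by position. *Myocd* had the most intronic peaks in both lists among the 6 genes, tied with *Mef2c* at 4 in the control female list, with 9 in the VEDS male list.

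*Myocd* had the most peaks in both long lists, 8 in the control female list and 15 in the VEDS male, or 4.14 and 7.75 per 100 kb of locus, compared with medians of 1.41 and 2.59 over all protein-coding genes. Of its intronic peaks, 3 of 4 in the control female list and 4 of 9 in the VEDS male list ranked above its promoter peak. Counting all positions, in the control female list 3 of the 7 other peaks had a higher −log10 q than the promoter peak, and in the VEDS male list 5 of 14. *Mef2a*, *Mef2c* and *Mef2d* also had such peaks in both long lists, whereas *Mef2b* and *Srf* had none. The share over all gene loci is not given here, so these counts are not read as a trait of these genes. The intron 5 peak at 60.3 kb ranked at 9.59% with 31 fragments in the control female list and 7.45% with 64 fragments in the VEDS male list, with its summit at the same base in both. The intron 2 peak at 43.1 kb ranked at 14.8% and 16.4%, and the intron 1 peak at 23.2 kb at 14.3% and 15.4%. A further peak 30.8 kb upstream, inside the long noncoding RNA gene *Gm12295*, ranked at 38.2% and 22.9%. The 2 peaks farthest downstream lay inside *Arhgap44*, a neighboring gene, and the locus had 0 peaks in either short list.

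*Mef2c* had 7 peaks in the control female list and 11 in the VEDS male list, 2.66 and 4.18 per 100 kb. The intron 4 peak with the MEF2 pair was the highest peak of the locus in the VEDS male list, at 20.4% with 33 fragments and 636 bp wide. In the control female list it ranked at 85.6% with 8 fragments and was 207 bp wide, and the highest peak there was in intron 2, 28.0 kb downstream, at 37.9% with 13 fragments. Both lists placed the intron 4 summit within 1 bp of each other. The lists differ in length and in fragments per peak, and the difference in rank was not tested.

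*Mef2d* had 7 and 9 peaks on a short gene of 29715 bp, 5.396 and 6.938 per 100 kb. In the control female list 3 of 5 peaks outside its promoters ranked above the promoter peak, and in the VEDS male list 2 of 7. These were led by the promoter of the antisense gene *1700113A16Rik*, 35.8 kb downstream, at 19.9% and 11.4%, followed by an intergenic peak 8.87 kb upstream, with 23 and 56 fragments. The antisense promoter peak contained the only CArG match at a *Mef2* gene, chr3:88177681-88177690. The intergenic peak 1.60 kb upstream with the shared MEF2 10-mer ranked at 38.6% with 28 fragments in the control female list and 24.7% with 66 fragments in the VEDS male list, and the intron 1 peak with the MEF2 pair at 96.2% with 9 fragments and 50.3% with 29 fragments.

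At *Mef2a* and *Mef2b* the highest peaks outside their own promoters lay at promoters of neighboring genes. At *Mef2a* 5 and 7 peaks were found, 2.07 and 2.90 per 100 kb, and the highest was at the promoter of *Lysmd4*, at 9.46% and 11.2%. Its intron 9 peak ranked at 69.6% in the control female list and 21.6% in the VEDS male list, and a MEF2 match, chr7:67243856-67243865, fell in the wider VEDS male peak only. At *Mef2b* 4 and 9 peaks were found, and the promoters of *Tmem161a* and *Slc25a42*, a mitochondrial carrier gene, were the highest outside its own. The *Slc25a42* promoter was the one region of the 55 with a peak in all 4 lists, with 47 fragments in the control female list, 15 for the control male, 7 in the VEDS female list and 105 in the VEDS male. It was also the only peak at the 6 loci in the control male list.

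*Srf*, the shortest of the 6 genes at 7847 bp, had 3 and 4 peaks, and the one in intron 2 ranked below the promoter peak in both lists. The intron 2 peak had 27 fragments in the control female, where the promoter peak had 32, and 78 fragments in the VEDS male list, where the promoter peak had 79. Its ranks were 27.6% and 10.2%. The other peak in both lists was at the promoter of *Cul9*, which encodes a cullin.

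MEF2 matches were found in 4 of 34 peaks at the 6 loci in the control female list (11.8%, interval 4.67 to 26.6), compared with 5.33% of all peaks, and in 6 of 55 in the VEDS male list (10.9%, 5.10 to 21.8), compared with 5.90%. CArG matches were found in 2 of 34 (5.88%, 1.63 to 19.1), compared with 2.93%, and in 3 of 55 (5.45%, 1.87 to 14.9), compared with 3.38%. Each of these intervals contained the share over all peaks. *Mef2a*, *Mef2c* and *Mef2d* had at least 1 peak with a MEF2 match in both long lists, and *Mef2b*, *Srf* and *Myocd* had none. No match says only that the exact letters were not in the window. With 1 mismatch allowed in the CC or GG of the CArG box, 2 *Myocd* peaks in the control female list and 3 in the VEDS male list had a match, against 13.4% and 15.8% of all peaks.

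The AP-1 site, bound by JUN and FOS proteins, was searched after the peaks had been seen. It was found in 4 of 8 *Myocd* peaks in the control female list and 6 of 15 in the VEDS male list, compared with 11.3% and 12.4% of all peaks, which is a description of a search made with the result in view. The 4 sites in the control female peaks were in introns 5 and 1, 60.2 and 23.1 kb downstream of the main TSS, and in *Arhgap44*, 117 and 141 kb downstream. At the other 5 loci together, 1 of 26 control female peaks and 6 of 40 VEDS male peaks had an AP-1 match. Over all 6 loci these were 5 of 34 (14.7%, 6.45 to 30.1) and 12 of 55 (21.8%, 12.9 to 34.4).

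Every control female peak at the 6 loci, 34 of 34 (100%, 89.8 to 100), overlapped a VEDS male peak by at least 1 bp, compared with 95.0% of all control female peaks. In the other direction 34 of 55 VEDS male peaks (61.8%, 48.6 to 73.5) overlapped a control female peak, compared with 47.6% of all. *Mef2d* had the highest share in that direction, 7 of 9, and *Mef2b* the lowest, 4 of 9, and with so few peaks their intervals (45.3 to 93.7% and 18.9 to 73.3%) overlapped. The 21 VEDS male peaks without a counterpart had 10 to 33 fragments at the summit (median 15), whereas the 34 with one had 9 to 105 (median 36.5). They ranked between 42.9% and 93.9%. Of the 27 VEDS male peaks in the top 40% of the list all 27 were overlapped, and of the 28 below it 7, while over all VEDS male peaks 86.3% of the top 40% and 21.7% of the rest were overlapped. The cut at 40% falls just before the best rank of the 21, 42.9%, so the 27 of 27 follows from where it lies. By position, 11 of the 21 were in introns, 4 intergenic, 3 inside other genes, 2 at own promoters and 1 at a promoter of another gene.

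**Figure D3:**
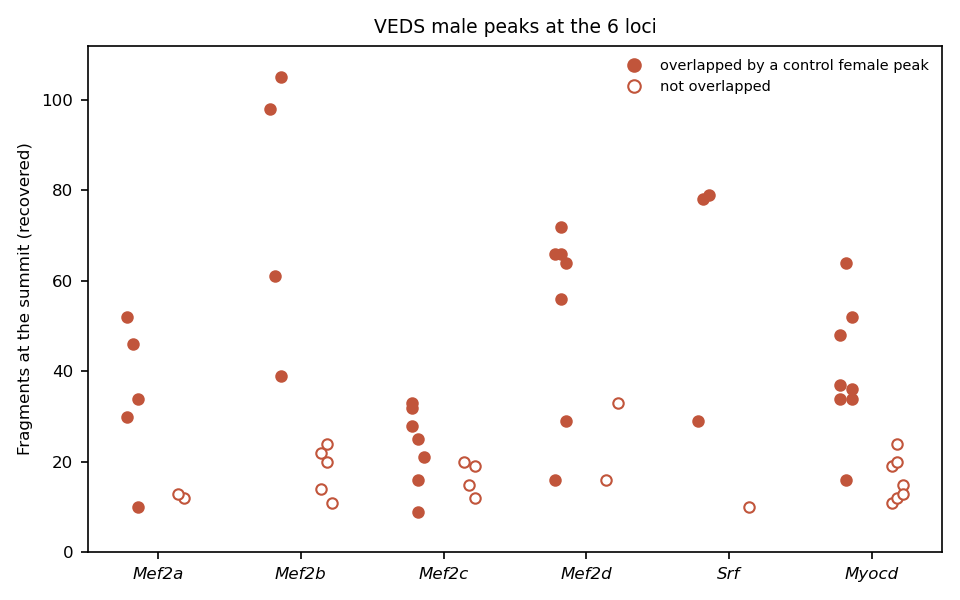
Fragments at the summit (y axis) of the 55 VEDS male peaks, by gene, with 1 point per peak, filled where a control female peak overlapped. Open points lie between 10 and 33 fragments, and all peaks above 33 fragments are filled.

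Among the 34 regions in both long lists, ranks followed each other (Spearman correlation 0.80 across regions, which share libraries and are not replicates). Of these regions 28 of 34 had a better percent rank in the VEDS male list, compared with 87.3% of all 20126 control female peaks with a VEDS male counterpart. A percent rank depends on the length of its list, and the VEDS male list is the longer one. Similarly, 32 of 34 were wider there (median 521 bp against 263 bp), compared with 88.7% of all (426 bp against 256 bp), and the median distance between summits was 41.5 bp. The intronic and promoter regions of *Myocd* had close ranks in both lists, with the exception of the intron 5 peak at 54.5 kb (64.2% and 27.5%). The *Mef2c* regions at 81.5 kb (97.5% and 37.8%) and in intron 4 (85.6% and 20.4%) and the *Mef2d* region 3.91 kb upstream (95.9% and 26.1%) were farthest apart.

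**Figure D4:**
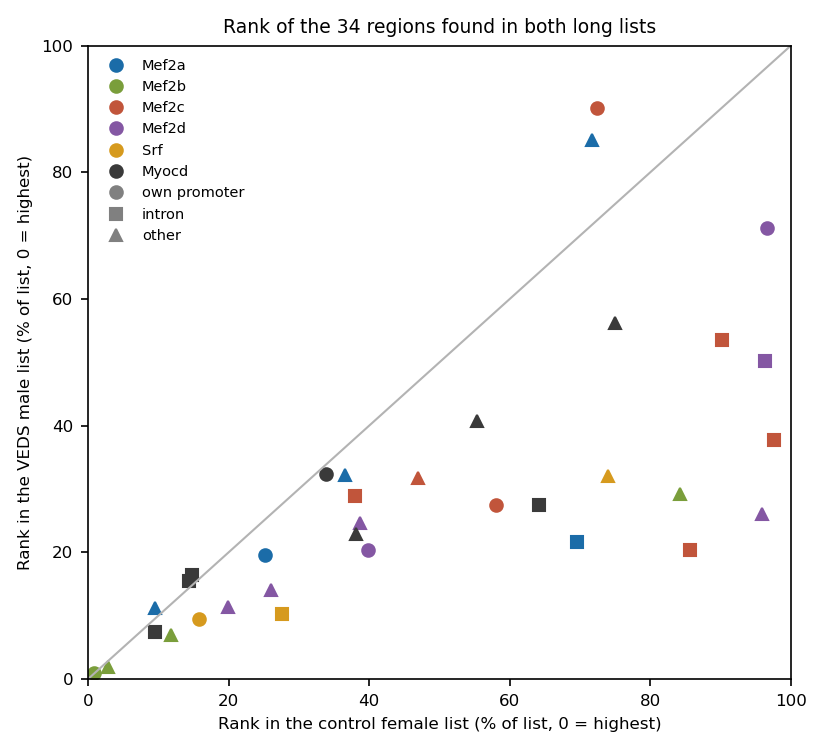
Rank in the control female list (x axis) and the VEDS male list (y axis), as a percentage of each list with 0 the highest, of the 34 regions found in both, colored by gene and shaped by position. The grey line marks equal ranks, and 28 points lie below it.

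Of 35 partners and regulators of MEF2 and SRF, 30 had a promoter peak in the control female list, 1 for the control male, 1 in the VEDS female list and 33 in the VEDS male, against the 44.9%, 1.34%, 1.37% and 55.5% of all protein-coding genes given above. The SRF coactivators *Mrtfa* and *Mrtfb* both had one in the long lists, and *Mrtfa* was the gene with one in the control male list, at 33.8%. All 5 MEF2 repressors (*Hdac4*, *Hdac5*, *Hdac7*, *Hdac9* and *Cabin1*) had one in both long lists, with ranks from 3.24% at *Hdac4* to 96.1% at *Hdac9* in the control female list. Among MEF2 kinases and activators 11 of 13 had one in the control female list and 12 of 13 in the VEDS male list, and *Camk2g*, encoding a calcium/calmodulin-dependent kinase, was the gene with one in the VEDS female list, at 8.73%. The ternary complex factor gene *Elk3*, the SRF modulator *Hopx* and the kinase gene *Prkd1* had one only in the VEDS male list, at 87.3%, 67.8% and 51.6%.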

How the data were processed

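ATAC-seq was measured in 4 libraries of aortic nuclei, each from 2 pooled mice, grouped by the genotype and sex in their labels. The authors aligned reads to mm10 (the aligner is not given in the sources used here), removed duplicates by barcode, corrected Tn5 cut sites, called narrow peaks per library with MACS2 and excluded blacklisted regions. The deposited lists hold, for each peak, a score, the fold enrichment (a ratio to the local background within its own library), −log10 p and −log10 q, and the summit. The score is 10 times the deposited −log10 q without its decimals. Since these values are relative to their own library, none was compared between lists, and ranks and presence were used instead.

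Fragments at a summit were solved for: the integer was taken that returns the deposited fold (pseudocount 1) together with the Poisson −log10 p, in 99.3% to 99.9% of peaks of a list, and in 100% of 500 simulated peaks. The simulated peaks were made with the same formula, so they check the solving and not that the integer counts fragments. With medians of 6 to 22 fragments per peak, weak sites may be missed in the short lists. The sequencing depth of the libraries is not given in the sources used here. Genes and TSSs came from GENCODE vM21 (GRCm38, equal to mm10). The main TSS is the most upstream one of the protein-coding transcripts, and introns are numbered in the longest transcript that starts there. A peak within 1 kb of a TSS of the gene was an own promoter peak, then within 1 kb of another gene (short RNA genes left out), intronic, inside another gene or intergenic by its summit. Motifs were searched by exact letters on both strands between the ends of each peak. Promoter sequences of all genes were RefSeq's, and printed sequences were read from the reference genome. Intervals are Wilson's at 95%. Python 3.11.15, pandas 2.3.3, numpy 2.4.6, scipy 1.17.1 and pysam 0.24.0 were used.

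The genes, the lists of partners and markers and the rule for peaks named one by one were chosen with earlier results of these data known. The rule names own promoter peaks, the highest other peak per gene and long list, peaks with a MEF2 or CArG match in both long lists and all peaks of the short lists. Other peaks, and *Dusp5*, *Ceacam11*, *Gm33934* and *Gm39572*, were named after their values were seen. Alternatives were stricter −log10 q of 5 and 10, the 504 highest peaks of each list, repeat masking, smaller loci, other promoter distances and TSS groupings, overlap of 50% of both peaks, summit windows of 300 bp, relaxed and strict motifs, and leaving out each library. An item is not reported here.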

Additional observations from a re-analysis of the deposited data

Results flagged for a closer look

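The difference in counts between VEDS and control had opposite signs in the 2 sexes. Between the female libraries the 6 loci had 2 peaks in VEDS and 34 in control, a difference of -32, and between the male libraries 55 in VEDS and 1 in control, a difference of 54. Genes with a promoter peak differed by -5 between the female libraries (1 of 6 in VEDS and 6 of 6 in control) and by 6 between the male libraries (6 of 6 and 0 of 6). The difference between the sexes was not tested, since each genotype and sex had 1 library. The list lengths moved the same way, with 504 peaks in the VEDS female and 21176 in the control female list, and 41444 in the VEDS male and 1236 in the control male list. As a share of the list, the signs were not opposite. The 6 loci held 0.397% of the VEDS female and 0.161% of the control female list. They held 0.133% of the VEDS male and 0.0809% of the control male list. In the short lists these shares rest on 2 peaks and 1 peak.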

How the results depend on the processing

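Of 76 values under other settings, 47 stayed within 1.5 times the reported count, or within the 95% interval of a reported share, and 29 moved further. With a −log10 q of at least 10, peaks at the 6 loci numbered 18 in the control female list, 0 in both short lists and 35 in the VEDS male list, TSS clusters with a peak in the control female list 5, and genes with a promoter peak in the VEDS female list 0. With a −log10 q of at least 5 the VEDS female list had 1 peak. Over the 504 highest peaks of each list, the control female and the VEDS male list had 1 peak each at the 6 loci and 1 gene each with a promoter peak. In both lists this was the promoter peak that *Mef2b* shares with *Borcs8* and *Rfxank*. The share over all protein-coding genes at this list size is not given here. In the gene bodies alone there were 18 peaks in the control female list, 0 in both short lists and 32 in the VEDS male list, and within 20 kb 0 in the control male list and 1 in the VEDS female list. With an overlap of 50% of both peaks, 73.5% of control female and 45.5% of VEDS male peaks were overlapped. In windows of 300 bp around the summit, 2 of 34 control female peaks had a MEF2 match, against 5.55% of all peaks. A CArG match was in 1 control female and 1 VEDS male window, against 3.02% and 3.09% of all peaks. The relaxed MEF2 motif matched 10 of 55 locus peaks of the VEDS male list, where it matched 10.9% of all peaks. The relaxed CArG motif matched 8 of 34 locus peaks of the control female list, where its share over all peaks was 13.4%. For the VEDS male list these CArG values were 12 of 55 and 15.8%. Since the looser patterns also matched more of all peaks, the higher counts are not read as a trait of these loci. Without either control library in turn, merged control peaks at the loci numbered 1 to 34 and genes with a promoter peak 0 to 6, and without either VEDS library 2 to 55 and 1 to 6. The lower values were those without the control female and without the VEDS male library. Stricter thresholds, shorter lists, smaller loci and fewer libraries leave fewer peaks by construction, and the cause of the other changes was not tested.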

Other observations

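Protein-coding genes of similar length (within 20%) were compared with each of the 6 genes by their numbers of peaks in the gene and 50 kb around it, as a Euclidean distance on the log2(count + 1) scale over the 4 libraries. The nearest genes to *Mef2a* were *Gbf1* and *Dmxl1*, each with 5 peaks in the control female list and 7 in the VEDS male list. Those nearest to *Mef2c* were *Znrf3* and *Stim1*, with 7 and 11 peaks in these lists, to *Mef2d* *Tgm2* and *Terf2*, with 7 and 9, to *Srf* *Tcea2* and *Zfp882*, with 3 and 4, and to *Myocd* *Fam53b* and *Nup93*, with 8 and 15. All of these genes had 0 peaks in both short lists and thus the same counts as their counterpart. Of the genes compared, 2 of 1273 had the same counts as *Myocd*, 3 of 742 as *Mef2c*, 7 of 2442 as *Mef2d*, 9 of 873 as *Mef2a* and 32 of 2122 as *Srf*. For *Mef2b* 0 of 2450 genes had the same counts, and the nearest was *Slc25a42*, a neighbor that shares peaks with the *Mef2b* locus, with 4 peaks in the control female list, 1 in the control male list, 2 in the VEDS female list and 7 in the VEDS male list.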
